A study of Mus musculus with 8 samples.

Results

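The genes examined here encode the machinery with which cells recognise bacterial lipopolysaccharide (LPS) and other microbial products: the Toll-like receptors Tlr1, Tlr2, Tlr3, Tlr4, Tlr6, Tlr7, Tlr9 and Tlr13, the LPS carrier Cd14, and Ly96, which encodes MD-2, the partner of TLR4. They were taken by gene symbol from both deposited tables and joined by gene identifier, and all 10 were found among the 31406 genes of the table that sets the ligand treatments against each other. RNA was sequenced from 8 cultures labelled as wild-type microglia. The study prepared such cultures from the striatum of neonatal C57/BL6 pups and reported a high microglial purity by CD11b labelling. After 15 days in culture, all of them were activated with LPS (0.01% by volume) together with interferon-γ (0.002% by volume, listed in the methods as the human protein) and were collected at 48 h. At 24, 32 and 40 h, 4 cultures were given SCH 58261 (200 nM in the study), an antagonist of the adenosine A2A receptor (A2A antagonist group). The other 4 were given SCH 58261 together with the adenosine A3 receptor agonist 2-Cl-IB-MECA at 200 nM (dual group). The study's methods give fewer than 4 replicates for ligand-treated cells, whereas a figure caption of the study gives 4, as the labels do. Groups follow the sample titles. The treatment field of the labels contradicts the titles for all 8 samples, so each direction below depends on the titles being right. The labels do not say whether cultures came from separate litters or animals, and p-values therefore measure the spread between these cultures, which may be technical. Every library carries LPS, interferon-γ and SCH 58261, and vehicle-treated cultures were not analysed here. The values thus give the level of each gene in activated cultures with the A2A receptor blocked, and its difference when the A3 agonist was added, but not its response to LPS or to SCH 58261.

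Toll-like receptors are membrane proteins with a leucine-rich ectodomain that binds a microbial ligand and a cytoplasmic TIR domain that recruits adaptors such as MyD88 and TRIF. CD14 delivers LPS to a complex of TLR4 and MD-2. TLR2 pairs with TLR1 or TLR6 to bind bacterial lipopeptides, while TLR3, TLR7, TLR9 and TLR13 read nucleic acids inside endosomes. Microglia are known to carry most of these receptors in the brain, and their signalling through NF-κB induces inflammatory cytokines. The question put to the data was whether transcripts of this sensing machinery differed when the A3 agonist was added to the A2A antagonist.

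Libraries held 32630602 to 45878639 counts, of which the 10 genes took 0.110% to 0.117%. Markers of several cell types were present, although the study reported a high microglial purity by CD11b labelling of cells. Summed over the 10 microglial markers, the level was 274 to 307 FPKM in the A2A antagonist libraries and 278 to 291 FPKM in the dual libraries, where FPKM is the fragment count scaled to gene length and library depth. The 8 astrocyte markers summed to 1046 to 1097 FPKM in the A2A antagonist libraries and 1076 to 1137 FPKM in the dual libraries, and the 6 fibroblast markers to 280.5 to 315 FPKM in the A2A antagonist libraries and 281 to 352 FPKM in the dual libraries. As single genes, the astrocyte filament Gfap had 386 ± 14.2 FPKM against 394 ± 19.5 FPKM (mean ± SD, n = 4 each) and Itgam, which encodes CD11b, had 24.7 ± 0.764 FPKM against 25.4 ± 1.28 FPKM (mean ± SD, n = 4 each). For the 7 oligodendrocyte lineage markers the sum was 190.9 to 206 FPKM in the A2A antagonist libraries and 173 to 190.8 FPKM in the dual libraries. The dual sums lay below the A2A antagonist sums only by the narrow margin of 190.8 against 190.9 FPKM. In counts scaled between libraries, the groups overlapped for each of the 7 genes. Endothelial, neuronal, neutrophil and dendritic cell markers each summed to 11.8 FPKM or less in every library. Of the neutrophil markers S100a9, Ly6g and Mpo have no row in the table, nor have the endothelial Cldn5 and the dendritic cell marker Siglech. No marker tested passed an adjusted p-value of 0.05 in edgeR, the smallest being 0.110 for the microglial gene Aif1 (log2 fold change -0.21). At an unadjusted p-value under 0.05 stood 1 of 10 microglial markers in each direction, and of 8 astrocyte markers 1 lower and 2 higher in the dual group. Of 6 fibroblast markers 3 stood higher, and of 7 oligodendrocyte lineage markers 1 stood lower. S100a8, the 1 neutrophil marker tested, stood higher. No endothelial, neuronal or dendritic cell marker passed. Of all genes tested, 6.81% stood lower and 5.98% higher at this threshold. In bulk RNA, fewer cells of a type cannot be told apart from less RNA per cell. The part of these other cells in the results below was not tested.

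**Figure D1:**
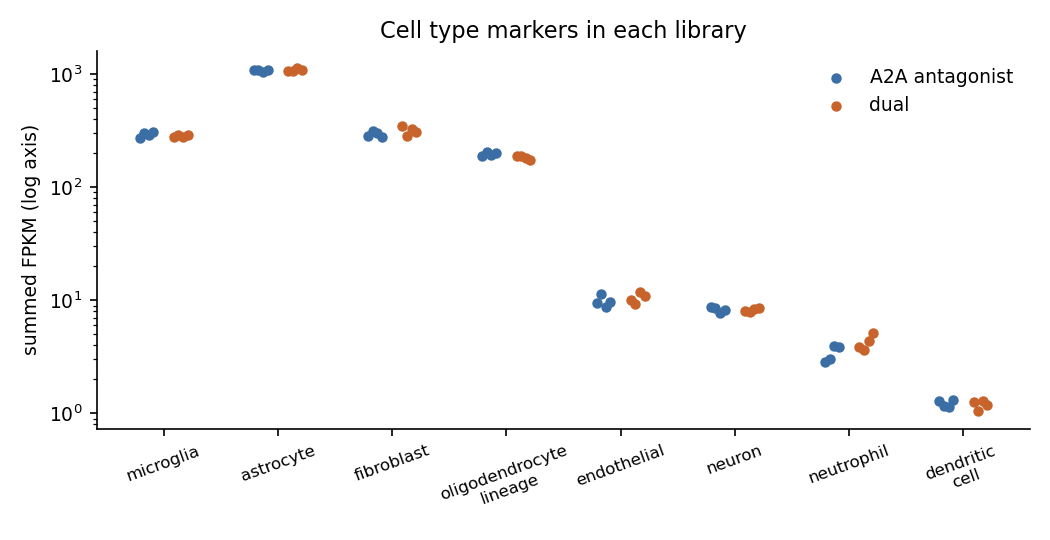
Summed FPKM (log axis) of the markers of 8 cell types in each library, with A2A antagonist libraries in blue and dual libraries in orange, each point being 1 library. Astrocyte markers lie highest in all 8 libraries, and the microglial and fibroblast sums lie between 274 and 352 FPKM.

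Per length of transcript, the 10 genes spread over a wide range, from 410.1 FPKM for Cd14 to 2.11 FPKM for Tlr9 as means of 8 libraries. Cd14 stood above 99.7% of the 18756 genes tested and Tlr2 (80.3 FPKM) above 97.1%. Below them came Tlr3 (20.6 FPKM), Tlr1 (11.3 FPKM), Tlr7 (9.24 FPKM), Ly96 (6.52 FPKM), Tlr4 (3.93 FPKM), Tlr13 (2.81 FPKM), Tlr6 (2.37 FPKM) and Tlr9. Tlr4, the receptor for the LPS that had been added, lay near the middle, above 50.5% of the genes tested. The ranges of FPKM over the 8 libraries overlapped between the neighbours Tlr1 and Tlr7, between Tlr13 and Tlr6, and between Tlr6 and Tlr9, whereas the ranges of the other neighbours were separate. Within each library the order of all 10 was nevertheless the same, since the first gene of every neighbouring pair was the higher in 8 of 8 libraries.

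The FPKM of the 8 receptor genes summed to 133.4 to 139 in the A2A antagonist libraries and to 122 to 133.3 in the dual libraries. Only a narrow margin lay between replicate 2 of the A2A antagonist group (133.4) and replicate 2 of the dual group (133.3). FPKM lack the scaling between libraries used in the tests. Tlr2 alone was 59.1% to 61.9% of the sum, so this separation is not independent of that of Tlr2. As a share of this sum, Tlr2 made up 60.7% ± 0.615 against 60.3% ± 1.22 (mean ± SD, n = 4 each) in the A2A antagonist and dual groups. Tlr3 made up 15.5% ± 0.474 against 15.7% ± 0.341 (mean ± SD, n = 4 each), Tlr1 8.71% ± 0.700 against 8.24% ± 0.749 (mean ± SD, n = 4 each) and Tlr7 6.91% ± 0.225 against 7.01% ± 0.387 (mean ± SD, n = 4 each). The receptor transcripts thus belonged mainly to the lipopeptide receptor and the sensor of double-stranded RNA. Tlr4 made up 2.74% ± 0.119 against 3.20% ± 0.185 (mean ± SD, n = 4 each).

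**Figure D2:**
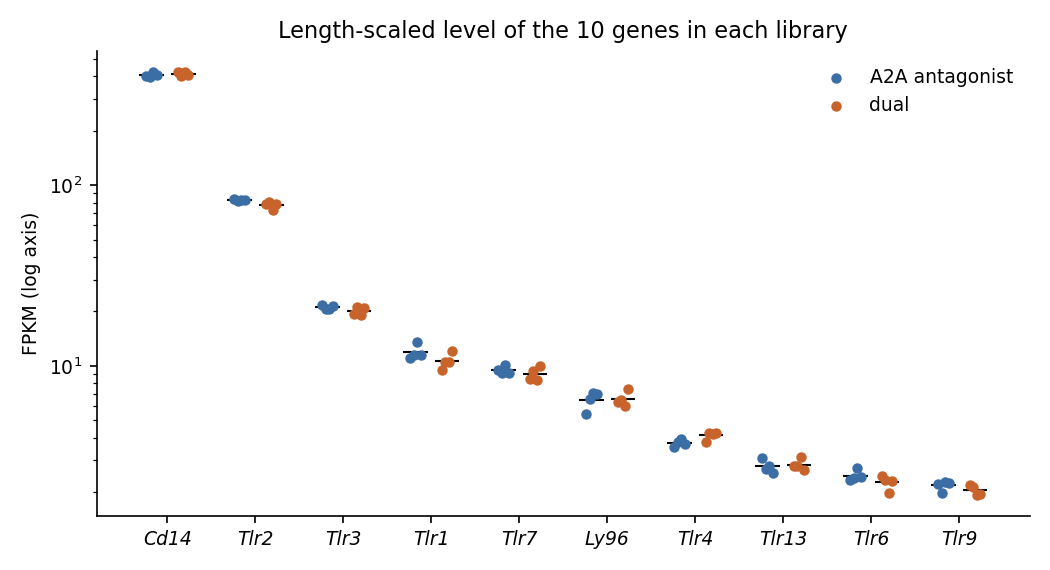
FPKM (log axis) of the 10 genes, ordered by their mean, with A2A antagonist libraries in blue and dual libraries in orange, each point being 1 library and each line the mean of 4. The genes span from 424 FPKM (the highest Cd14 library) to 1.94 FPKM (the lowest Tlr9 library), and the groups lie close to each other for each gene.

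In the RefSeq table of promoters (GRCm38.p6) 6 of the 10 symbols had an entry, with 8 windows in all. The 250 bases before the RefSeq start were searched on both strands for 5 motifs. These were GAGGAA (the core of the site of PU.1, a lineage factor of microglia and macrophages), the interferon-stimulated response element written as GAAA, any 2 bases and GAAA, the NF-κB site written as GGG, any 3 bases and TTCC, the AP-1 site TGANTCA, and TGACG from the cyclic AMP response element. No pair of motif matches in the printed windows overlaps. Of all 32851 windows of the table, 23.3% held the PU.1 letters, 2.98% the interferon-stimulated response element, 4.65% the NF-κB letters, 6.75% the AP-1 letters and 17.8% TGACG. Printed 5′ to 3′ on the strand of the gene, with matches in capitals, are the windows of Tlr2 and Tlr3, the most abundant receptor transcripts, and of Tlr1 and Tlr6, whose products pair with TLR2.
Tlr2, chr3:83841609-83841858, minus strand: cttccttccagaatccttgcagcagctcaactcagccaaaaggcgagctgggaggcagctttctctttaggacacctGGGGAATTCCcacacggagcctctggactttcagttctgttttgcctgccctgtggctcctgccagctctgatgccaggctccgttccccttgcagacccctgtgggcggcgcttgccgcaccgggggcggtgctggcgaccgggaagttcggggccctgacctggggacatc
Tlr3, chr8:45410381-45410630, minus strand: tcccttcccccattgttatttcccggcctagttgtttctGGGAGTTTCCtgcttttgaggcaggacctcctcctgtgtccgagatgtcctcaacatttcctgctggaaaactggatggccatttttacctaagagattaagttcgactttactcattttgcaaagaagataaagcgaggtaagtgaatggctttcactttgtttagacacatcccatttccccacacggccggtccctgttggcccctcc
Tlr1, chr5:64933559-64933808, minus strand: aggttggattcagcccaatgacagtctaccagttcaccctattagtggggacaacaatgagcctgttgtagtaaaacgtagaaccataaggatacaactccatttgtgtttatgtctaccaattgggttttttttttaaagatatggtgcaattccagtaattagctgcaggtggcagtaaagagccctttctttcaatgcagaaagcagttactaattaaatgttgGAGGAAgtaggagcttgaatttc
Tlr6, chr5:64960049-64960298, minus strand: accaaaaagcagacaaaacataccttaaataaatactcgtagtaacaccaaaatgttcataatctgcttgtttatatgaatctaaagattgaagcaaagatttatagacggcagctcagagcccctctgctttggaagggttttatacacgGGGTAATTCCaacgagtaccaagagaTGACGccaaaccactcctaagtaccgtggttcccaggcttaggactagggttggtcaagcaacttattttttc
Tlr2 and Tlr3 each held the NF-κB letters once, beginning 173 and 211 bases before the RefSeq start. Tlr1 held the PU.1 letters 23 bases before the start, and Tlr6 held the NF-κB letters at 99 and TGACG at 73 bases. The other Tlr1 window held none of the motifs, and the other Tlr6 window held the interferon-stimulated response element on the opposite strand in a pair of overlapping matches. In Tlr9 the PU.1 letters began at 112 and the AP-1 letters at 58 bases, and in Tlr13 the PU.1 letters began at 83 and TGACG at 136 bases. RefSeq starts differ from the deposited gene coordinates, by which the Tlr3 window and the other Tlr1 and Tlr6 windows lie wholly inside their genes. The printed Tlr2, Tlr1 and Tlr6 windows and the Tlr13 window lie partly inside. Distances thus hold for the RefSeq starts only. A match is a run of letters and says nothing of binding in these cultures.

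None of the 10 genes was called at an adjusted p-value under 0.05 in edgeR, where 0.208% of the 18756 genes tested were called (0.16% lower and 0.048% higher in the dual group). The DESeq2 Wald test gave Ly96 no adjusted p-value and called none of the other members, and called 3.37% of the genes to which it gave one. At an unadjusted p-value under 0.05 stood 3 of the 10, Tlr2 and Tlr1 with a lower and Tlr4 with a higher level in the dual group, as did 12.8% of all genes tested (6.81% lower and 5.98% higher). That number depended on single libraries: without dual replicate 2 it was 1 (Tlr2), without dual replicate 3 it was 1 (Tlr4), and without dual replicate 4 it was 4, with Tlr7 added. It was 2 without dual replicate 1, without A2A antagonist replicate 1 and without A2A antagonist replicate 3.

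The log2 fold changes, dual minus A2A antagonist, lay below 0 for 6 of the 10 genes and above 0 for 4, where 48.5% of all genes tested lay below 0. Their median was -0.062 and they ranged from -0.16 to 0.14, while the median of all genes tested was 0.0038. In size they had a median of 0.075, against 0.072 for all genes tested. The same median was 0.050 for the 11824 genes whose mean log2 CPM was 2.5 or more, a level that all 10 reach. Those genes were not matched to the 10 in level. CPM stands for the count relative to the scaled total of its library.

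**Figure D3:**
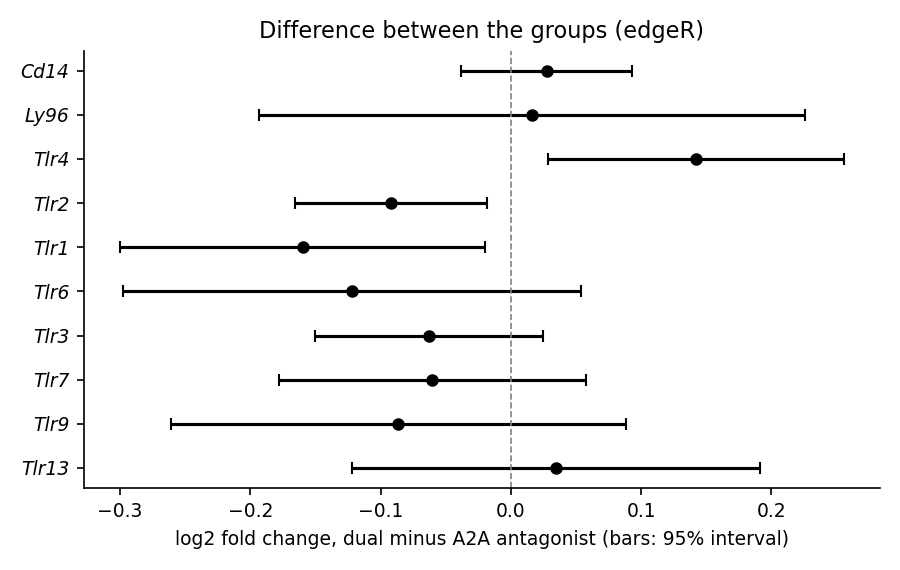
Log2 fold change (dual minus A2A antagonist) of the 10 genes from edgeR, with bars for the 95% interval and genes ordered by role. The intervals of Tlr4 (above 0) and of Tlr2 and Tlr1 (below 0) leave out 0 before adjustment over all genes tested, and no gene passed the adjusted threshold.

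The LPS receptor complex held both the most abundant gene and genes of modest level. Cd14 (ENSMUSG00000051439, chromosome 18, 36725074 to 36726736, minus strand), which hands LPS to TLR4, had 637, 627, 667 and 643 CPM in A2A antagonist replicates 1 to 4 and 672, 640.4, 665 and 646 CPM in dual replicates 1 to 4. The libraries of the groups interleaved. Its mean level was 643 ± 17.0 CPM against 656 ± 15.1 CPM (A2A antagonist against dual, mean ± SD, n = 4 each), with a log2 fold change of 0.028 (SE 0.031, adjusted p-value 0.773). That value was 0.015 without A2A antagonist replicate 2 or dual replicate 1, 0.018 without dual replicate 3 and 0.044 without A2A antagonist replicate 3. The 95% interval of the change was -2.62% to 6.68%, the narrowest of the 10. Ly96 (ENSMUSG00000025779, chromosome 1, 16688051 to 16709611, plus strand), whose product MD-2 forms the pocket that binds LPS, had the values 216, 306, 302 and 324 in raw counts in A2A antagonist replicates 1 to 4 and 211, 254, 283 and 341 in dual replicates 1 to 4. These are among the lowest counts of the 10 genes, and the groups overlapped. Scaled, Ly96 had 6.67 ± 0.746 CPM against 6.75 ± 0.662 CPM (A2A antagonist against dual, mean ± SD, n = 4 each), and its log2 fold change of 0.016 (SE 0.100, adjusted p-value 0.969) was -0.058 without A2A antagonist replicate 1 and -0.056 without dual replicate 4, and reached 0.057 without dual replicate 3. The interval for Ly96 was -12.5% to 16.9%.

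Tlr4 (ENSMUSG00000039005, chromosome 4, 66827584 to 66930284, plus strand), the signalling receptor for LPS, had 19.9, 21.2, 21.9 and 20.7 CPM in A2A antagonist replicates 1 to 4 and 21.3, 23.9, 23.4 and 23.7 CPM in dual replicates 1 to 4. Dual replicates 2, 3 and 4 lay above all A2A antagonist libraries, and dual replicate 1 lay among them. The log2 fold change was 0.14 (SE 0.054, adjusted p-value 0.268), with an unadjusted p-value of 0.0173 and an interval of 1.97% to 19.4%. When single libraries were left out it ranged from 0.12 to 0.18. Within a library the FPKM of Cd14 was 94.7 to 113 times that of Tlr4, on average 109 ± 3.65 against 101 ± 7.65 (A2A antagonist against dual, mean ± SD, n = 4 each). The FPKM of Ly96 was 1.43 to 1.88 times that of Tlr4, on average 1.73 ± 0.149 against 1.59 ± 0.146 (A2A antagonist against dual, mean ± SD, n = 4 each). Both ratios overlapped between the groups, and per length the transcripts of the carrier and of MD-2 exceeded those of the receptor in all 8 libraries. Before scaling to length, Ly96 had 211 to 341 counts in a library and Tlr4 694 to 1074. The order of Ly96 and Tlr4 thus rests on the gene lengths used, 1021 and 5556 bases.

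Tlr2 (ENSMUSG00000027995, chromosome 3, 83836272 to 83841767, minus strand), the lipopeptide receptor and the leading receptor transcript, had 256, 247, 252 and 252 CPM in A2A antagonist replicates 1 to 4 and 239.9, 246, 221 and 238 CPM in dual replicates 1 to 4. All dual libraries lay below all A2A antagonist libraries, by a narrow margin between replicate 2 of the dual group (245.8 CPM) and replicate 2 of the A2A antagonist group (246.6 CPM). It was the one gene of the 10 whose groups did not overlap, as was the case for 7.42% of the genes tested. On average Tlr2 had 252 ± 3.82 CPM against 236 ± 10.6 CPM (A2A antagonist against dual, mean ± SD, n = 4 each), with a log2 fold change of -0.092 (SE 0.035, adjusted p-value 0.268), an unadjusted p-value of 0.0171 and an interval of -10.9% to -1.27%. Without dual replicate 3, the lowest library, the log2 fold change was -0.065 with an unadjusted p-value of 0.0809.

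Tlr1 (ENSMUSG00000044827, chromosome 5, 64924679 to 64933563, minus strand), the partner of TLR2 for triacylated lipopeptides, had 37.4, 38.8, 45.4 and 38.7 CPM in A2A antagonist replicates 1 to 4 and 32.0, 35.3, 35.3 and 40.6 CPM in dual replicates 1 to 4. Dual replicate 4 lay above all A2A antagonist libraries but replicate 3, and the other dual libraries lay below all of them. Its log2 fold change of -0.16 (SE 0.067, adjusted p-value 0.315) had an unadjusted p-value of 0.0277 and was the largest in size of the 10. It was -0.096 without A2A antagonist replicate 3 and -0.23 without dual replicate 4. Tlr6 (ENSMUSG00000051498, chromosome 5, 64952031 to 64960097, minus strand), the partner for diacylated lipopeptides, lies close to Tlr1 on the same strand. It had 8.76 to 10.2 CPM in the A2A antagonist group and 7.45 to 9.26 CPM in the dual group, which overlap, with a log2 fold change of -0.12 (SE 0.084, adjusted p-value 0.582) that was -0.071 without A2A antagonist replicate 3 and -0.063 without dual replicate 3. The FPKM of Tlr1 was 3.85 to 5.28 times that of Tlr6. The transcripts of both genes share 31-base words, 18.3% of those of Tlr1 and 16.4% of those of Tlr6. How many reads were misassigned or dropped there was not tested, and the counts of both genes are uncertain in this respect.

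**Figure D4:**
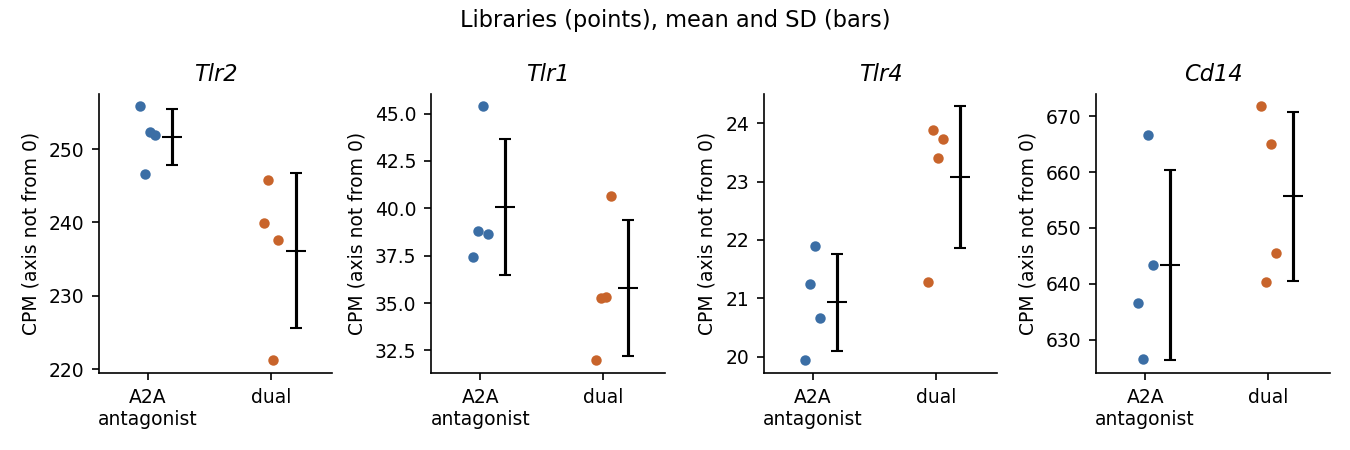
CPM of Tlr2, Tlr1, Tlr4 and Cd14 in each library (points, A2A antagonist in blue, dual in orange), with the mean and SD of 4 libraries beside them, on axes that do not start at 0. The Tlr2 points of the groups do not overlap, those of Tlr1 and Tlr4 overlap through single libraries, and those of Cd14 interleave.

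The ratio of Tlr2 to Tlr4 within a library was computed after their values were seen and is described without a test. In FPKM it was 23.7, 21.4, 21.3 and 22.5 in A2A antagonist replicates 1 to 4 and 20.8, 19.0, 17.4 and 18.5 in dual replicates 1 to 4. The groups did not overlap, with means of 22.2 ± 1.12 against 18.9 ± 1.41 (A2A antagonist against dual, mean ± SD, n = 4 each). As the ratio divides a gene lower in the dual group by a gene higher there, this separation follows from the values already given.

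Among the endosomal receptors, Tlr3 (ENSMUSG00000031639, chromosome 8, 45395665 to 45411080, minus strand), the sensor of double-stranded RNA, had 114, 107, 108 and 113 CPM in A2A antagonist replicates 1 to 4 and 102, 112, 99.6 and 110.4 CPM in dual replicates 1 to 4. Dual replicates 1 and 3 lay below all A2A antagonist libraries, and dual replicates 2 and 4 lay among them. Its log2 fold change was -0.063 (SE 0.042, adjusted p-value 0.564), with an interval of -9.89% to 1.72%, and it was -0.037 without dual replicate 3. Of its exonic bases 381 overlap Gm45542 on the opposite strand, and whether reads were counted by strand is not given in the sources used here. Tlr7 (ENSMUSG00000044583, chromosome X, 167304929 to 167330558, minus strand), a sensor of single-stranded RNA, had 37.3 to 41.3 CPM in the A2A antagonist group and 34.1 to 41.1 CPM in the dual group, with a log2 fold change of -0.060 (SE 0.056, adjusted p-value 0.707) that was -0.022 without dual replicate 3, -0.029 without A2A antagonist replicate 3, -0.034 without dual replicate 1 and -0.11 without dual replicate 4. Tlr9 (ENSMUSG00000045322, chromosome 9, 106222598 to 106226883, plus strand), the sensor of unmethylated CpG DNA, had 6.95 to 7.94 CPM in the A2A antagonist group and 6.78 to 7.66 CPM in the dual group, with a log2 fold change of -0.086 (SE 0.083, adjusted p-value 0.718). The libraries of the groups overlapped for each of these genes. Tlr13 (ENSMUSG00000033777, chromosome X, 106143204 to 106160493, plus strand), which recognises bacterial ribosomal RNA, had 11.0 to 13.4 CPM in the A2A antagonist group and 11.6 to 13.5 CPM in the dual group, also overlapping, with a log2 fold change of 0.035 (SE 0.075, adjusted p-value 0.895) that was -0.0066 without A2A antagonist replicate 4 and -0.018 without dual replicate 3, and reached 0.088 without A2A antagonist replicate 1. The intervals of the change were -11.6% to 4.08% for Tlr7, -16.5% to 6.30% for Tlr9 and -8.09% to 14.2% for Tlr13.

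The spread among libraries of a group differed between the genes. The coefficient of variation of the CPM was 2.65% and 2.30% in the A2A antagonist and dual groups for Cd14, and 1.52% and 4.47% for Tlr2. For Ly96 it was 11.2% and 9.81%. Likeness was measured as Pearson's r of log2 CPM over the 8 libraries, among 11051 genes whose mean log2 CPM was 3 or more. The genes most like Tlr4 were Scn2a (r = 0.97), Otulinl (r = 0.96) and Ppp1r7 (r = 0.96). Those most like Tlr2 were March5 (r = 0.95), Gpc4 (r = 0.95) and Mccc2 (r = 0.95), and those most like Cd14 were Araf (r = 0.96), Prkcd (r = 0.94) and Slfn1 (r = 0.94). None of them belongs to the 10 genes, and these values, picked as the highest of many over 8 points from 1 kind of culture, are a description only.

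Of 79 further genes of the pathway, 76 passed the low-count filter and none was called in edgeR, while the DESeq2 Wald test called 3 (Tnfaip3, Nfkbia and Tnf) and gave Il12b no adjusted p-value. An unadjusted p-value under 0.05 was found for 16 of the 76, of which 12 were lower and 4 higher in the dual group, where it was found for 12.8% of all genes tested (6.81% lower and 5.98% higher). Their median log2 fold change was -0.018, with 46 below 0 and 30 above, and 48.5% of all genes tested lay below 0. The groups did not overlap for 6 of the 76 (Myd88, Irak1, Tnfaip3, Nfkbia, Il12b and Nfkbiz), a share close to the 7.42% of all genes tested. Among other receptors and LPS-binding partners, Tlr8, whose gene neighbours Tlr7 on chromosome X, had 20.4 ± 1.53 CPM against 23.9 ± 2.10 CPM (A2A antagonist against dual, mean ± SD, n = 4 each). Its groups overlapped, and its log2 fold change was 0.23 (SE 0.067, adjusted p-value 0.145). Ly86 (MD-1) and Cd180 (RP105), which form a complex related to that of MD-2 and TLR4, had log2 fold changes of -0.16 (adjusted p-value 0.270) and -0.14 (adjusted p-value 0.481). Lbp, which transfers LPS to CD14, was abundant, with 215 ± 5.25 FPKM against 222 ± 13.3 FPKM (mean ± SD, n = 4 each). Tlr5 and Tlr12 had at most 15 and 13 counts in a library and were not tested, and Tlr11 has no row in the table.

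Among the 6 adaptors, Myd88, which serves all the receptors examined except TLR3, had 71.5 ± 1.22 CPM against 65.4 ± 3.55 CPM (A2A antagonist against dual, mean ± SD, n = 4 each). Its groups did not overlap, and its log2 fold change was -0.13 (SE 0.042, adjusted p-value 0.186). Ticam1, which encodes TRIF, the adaptor of TLR3, had -0.12 (adjusted p-value 0.499) and Tirap, which bridges TLR2 and TLR4 to MyD88, had 0.081 (adjusted p-value 0.582). Among 17 kinases, ligases and scaffolds, 1 stood lower and 1 higher at an unadjusted p-value under 0.05: Irak1, a kinase of the MyD88 complex, at -0.081 (adjusted p-value 0.342) and Tab3, a partner of the kinase TAK1, at 0.20 (adjusted p-value 0.179). Peli1, a ubiquitin ligase, had -0.087 (adjusted p-value 0.468). Among 9 folding and trafficking genes, only Slc15a4, an endolysosomal transporter, stood under 0.05 before adjustment, at -0.13 (adjusted p-value 0.358), followed by Slc15a3 at -0.068 (adjusted p-value 0.524) and Lrrc59 at -0.036 (adjusted p-value 0.701). Unc93b1, which escorts endosomal receptors out of the endoplasmic reticulum, had 48.4 ± 2.55 FPKM against 47.6 ± 1.92 FPKM (mean ± SD, n = 4 each). The 5 endosomal proteases lay between -0.063 and -0.018, with Ctss at -0.061 (adjusted p-value 0.499), Lgmn at -0.063 (adjusted p-value 0.527) and Ctsb at -0.025 (adjusted p-value 0.775).

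**Figure D5:**
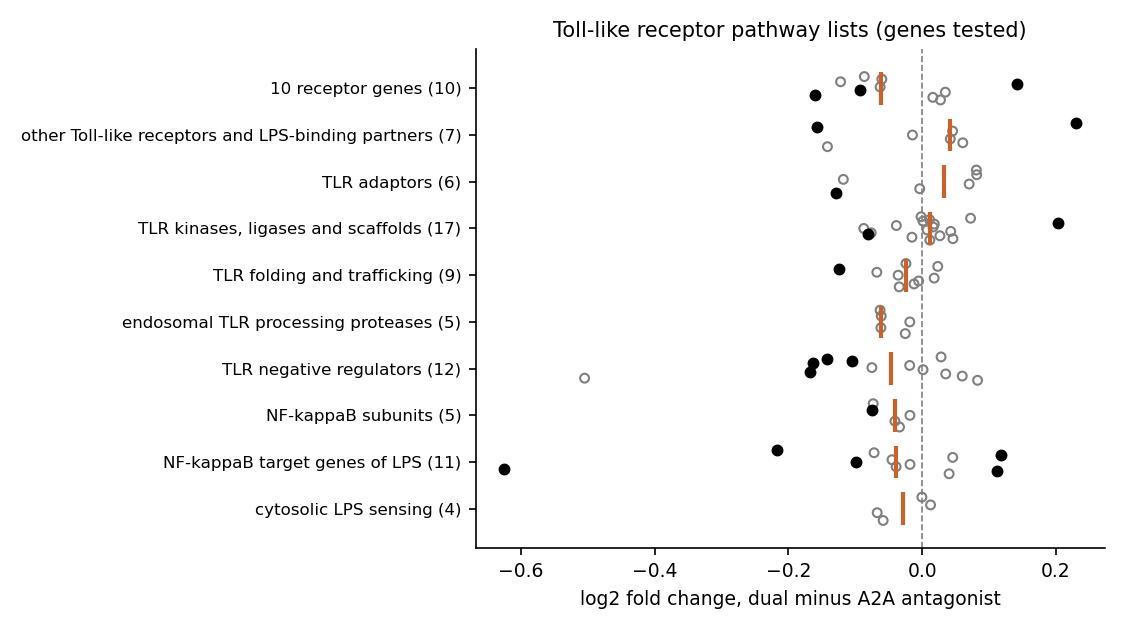
Log2 fold change (dual minus A2A antagonist) of the genes tested in each list, with the number tested in brackets, filled points for an unadjusted p-value under 0.05, open points for the others, and an orange line at the list's median. The list medians lie between -0.061 and 0.042, and no point passed the adjusted threshold.

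The smallest adjusted p-values were those of negative regulators, several of which NF-κB is known to induce. Of 12 tested, 4 stood lower and none higher at an unadjusted p-value under 0.05, beside 6.81% and 5.98% of all genes tested, and the median log2 fold change of the 12 was -0.047. Tnfaip3, which encodes the ubiquitin-editing enzyme A20, had 179, 189, 195 and 195 CPM in A2A antagonist replicates 1 to 4 and 170.2, 174, 164 and 169 CPM in dual replicates 1 to 4. All dual libraries lay below all A2A antagonist libraries. Its log2 fold change was -0.16 (SE 0.035, adjusted p-value 0.0606), and the adjusted p-value was 0.000966 in DESeq2. Nfkbia, which encodes the inhibitor IκBα, had 488, 512, 555 and 539 CPM in A2A antagonist replicates 1 to 4 and 476, 469, 474 and 446 CPM in dual replicates 1 to 4. Its groups did not overlap either, and its log2 fold change was -0.17 (SE 0.039, adjusted p-value 0.0686), with an adjusted p-value of 0.00418 in DESeq2. In edgeR both were called without A2A antagonist replicate 1, each with an adjusted p-value of 0.0177. With the replicate number added to the edgeR fit as a block, the adjusted p-values were 0.142 for Tnfaip3 and 0.148 for Nfkbia. Tnip1, a binding partner of A20, had -0.11 (adjusted p-value 0.295). The 5 NF-κB subunits lay between -0.076 and -0.018, with Rela at -0.076 (adjusted p-value 0.389), Relb at -0.073 (adjusted p-value 0.505) and Nfkb2 at -0.041 (adjusted p-value 0.697).

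Of the 11 NF-κB target genes, 7 lay below 0 and 4 above, beside 48.5% of all genes tested below 0. At an unadjusted p-value under 0.05, 3 stood lower and 2 higher, beside 6.81% and 5.98% of all genes tested. Il12b, a subunit of interleukin-12, had a low level of 4.23 ± 0.554 CPM against 2.72 ± 0.665 CPM (A2A antagonist against dual, mean ± SD, n = 4 each) without overlap and a log2 fold change of -0.62 (SE 0.16, adjusted p-value 0.0907). In DESeq2, where it had no adjusted p-value, its unadjusted p-value was 0.000239. Tnf, the cytokine tumour necrosis factor, had 62.9, 68.0, 64.7 and 69.5 CPM in A2A antagonist replicates 1 to 4 and 50.6, 57.4, 56.5 and 63.1 CPM in dual replicates 1 to 4. The groups overlapped narrowly, dual replicate 4 lying just above A2A antagonist replicate 1. Its log2 fold change was -0.22 (SE 0.054, adjusted p-value 0.0912), with an adjusted p-value of 0.0120 in DESeq2, and in edgeR it was called without dual replicate 4, with an adjusted p-value of 0.0375. Cxcl2, a neutrophil chemokine, had 0.11 (adjusted p-value 0.312). None of the 4 genes of cytosolic LPS sensing stood under 0.05 before adjustment, with Casp4, a cytosolic LPS receptor, at -0.067 (adjusted p-value 0.540), Casp1 at -0.058 (adjusted p-value 0.683) and Gsdmd, the pore-forming target of these caspases, at 0.013 (adjusted p-value 0.944).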

How the data were processed

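Per the labels and the study's methods, the authors aligned paired-end reads to the mouse genome (mm10) with HISAT2 and counted them per gene with featureCounts 1.5.0-p3. The deposited counts are raw, without normalization or pooling. The deposited FPKM of the authors divide each count by gene length and a library depth, here 0.996 to 1.01 times the total count, and served to compare levels between genes. Columns with the authors' own fold changes, p-values and means were not used, nor were 9 columns of 3 control libraries, which carry no sample of this series. Coordinates are those of the files, and for all members but Cd14 equal GENCODE M21 (GRCm38). The treatment field and titles disagree, and titles were used.

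In edgeR 4.0.16 (R 4.3.3), genes were filtered with filterByExpr (minimum count 10), scaled by TMM and tested by a two-sided quasi-likelihood F test of 4 against 4 libraries without covariates, with Benjamini-Hochberg adjustment over 18756 genes and calls at an adjusted p-value under 0.05. All 10 members passed the filter. Standard errors and 95% intervals derive from the F statistics. CPM are TMM-scaled. The procedure was tested on simulated data with larger changes than any of the 10 members showed. That test does not cover changes of their size. Depth was 32630602 to 45878639 counts, and the member with the fewest reads had 211 in a library. Alternatives were DESeq2 1.42.0, RLE factors, no filter, a replicate block and leaving out each library.

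Members and lists were chosen with earlier results of these data known. Named were all members, the 3 genes of each pathway list with the smallest p-value, and the 3 genes most like Tlr4, Tlr2 and Cd14. Lbp, Unc93b1, Nfkbiz, Tlr5, Tlr11, Tlr12 and single markers were named after their values were seen.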

Additional observations from a re-analysis of the deposited data

Results flagged for a closer look

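Within groups of 4, a library was singled out where its gap to the nearest of the others, divided by the whole range of the group, exceeded the 95% critical value of Dixon's test. Of 32 sets of values 2 met this, and chance singles out about 5% of such sets. Tlr9 was low in A2A antagonist replicate 2, at 6.95 CPM, where the others had 7.78 to 7.94 CPM. The FPKM ratio of Cd14 to Ly96 was high in A2A antagonist replicate 1, at 73.8, where the others had 58.6 to 60.5. That library had the lowest Ly96 level of the 8, at 5.43 FPKM.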

How the results depend on the processing

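None of the 10 genes was called under any of the 12 alternatives that gave it an adjusted p-value (DESeq2 gave none for Ly96), and of 120 log2 fold changes 4 changed sign, 2 of Ly96 and 2 of Tlr13. When single libraries were left out, the log2 fold change ranged from -0.058 to 0.057 for Ly96 (below 0 without A2A antagonist replicate 1 or dual replicate 4) and from -0.018 to 0.088 for Tlr13 (below 0 without A2A antagonist replicate 4, at -0.0066, or dual replicate 3). Adjusted p-values over all alternatives were 0.118 to 0.522 for Tlr2, 0.132 to 0.632 for Tlr1 and 0.169 to 0.502 for Tlr4. The number of the 10 genes at an unadjusted p-value under 0.05 ranged from 1 to 4, and their median log2 fold change from -0.084 to -0.030, when single libraries were left out. Over all genes, 39 were called as reported, 366 without the low-count filter, 381 by DESeq2, 17 with the replicate block and 0 to 172 with single libraries left out (0 without A2A antagonist replicate 4 or dual replicate 3). Same-numbered libraries of the groups did not deviate together (correlations -0.206 to -0.0470 over 11051 genes, and 0 of 4 numbers correlated best with itself), so the numbers were not taken to pair the libraries. Of the other pathway genes, 5 were called without the filter (Tnfaip3, Nfkbia, Tnf, Il12b and Tlr8, the last with an adjusted p-value of 0.0477), 3 by DESeq2 and 0 to 2 with single libraries left out. For the 27 pathway genes named by list, whose alternatives were added after seeing the data, 2 of 324 log2 fold changes changed sign, both of Gsdmd, which ranged from -0.023 to 0.028 with single libraries left out. FPKM and CPM per kilobase differed by less than 1 SD between libraries for all 10 genes. Both measures divide the same counts by the same gene lengths and differ only in library scaling. Their closeness therefore says nothing of how levels depend on the lengths used. The causes of the changes between alternatives were not tested.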
